A study of Mus musculus with 12 samples.

Results

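Interferon-stimulated genes are the genes that cells switch on when an interferon binds its receptor, and 33 of them, listed by name, were followed in mouse lung after 3 days of hypoxia. Each was matched to the array through the gene symbol or synonym of the platform annotation, and a gene was represented by the transcript cluster (a group of probes along 1 transcribed region) that had the highest average level of the 12 arrays, out of those annotated with 1 gene. By this rule 30 of the 33 were measured, of 22180 genes measured in all. Oas1a and Gbp2 shared their only clusters with a close relative (Oas1g and Gbp2b), and Ifi44 had no cluster named for it here, so that these 3 genes were not analysed. Ifi35 was the member with more than 1 cluster. RNA came from the left lung lobe of 12 C57BL/6J mice, of which 6 were kept in a chamber at 10% oxygen and normal pressure (hypoxia) and 6 in room air of 21% oxygen (normoxia) for 3 days, with 1 array per mouse. Prolonged hypoxia is a model of pulmonary hypertension, and the series asks which lung transcripts differ at an early time. The methods describe C57BL/6J mice of the study as male and matched for age, and they give an age range for a longer hypoxia protocol but none for these 12. Normoxic mice were housed outside the chamber, so that low oxygen and life in the chamber cannot be told apart.

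Type I interferons signal through the Ifnar1 and Ifnar2 receptor chains and Janus kinases to a complex that holds Stat2 and Irf9 and binds the interferon-stimulated response element in the promoters of its targets. Interferon-gamma, made mainly by T cells and natural killer (NK) cells, signals through Ifngr1 and Ifngr2 to the gamma-activated site in the promoters of its own targets, and it is the strong inducer of the immunity-related and guanylate-binding GTPases. In the lung these genes are best known for the defence against respiratory viruses.

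Levels are given on the log2 scale of RMA, on which a difference of 1 is a 2-fold change. Array medians lay between 5.89 and 5.92 in hypoxia and between 5.89 and 5.95 in normoxia, and any pair of arrays correlated at 0.983 to 0.990 over clusters. Markers of the labelled tissue were present, and the surfactant gene Sftpc had a median of 13.35 in hypoxia and 13.41 in normoxia, and endothelial Cdh5 had 11.75 in hypoxia and 11.79 in normoxia. The labels name no batch, and precision is limited by the 6 mice in each group. Nothing in the labels states how the mice were caged within a group, so the p-values measure the spread between these mice. Because RNA came from whole lobes, a change in the number of cells of a type and a change in RNA per cell cannot be told apart.

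After 3 days of hypoxia most of the measured interferon-stimulated genes were near their normoxic level. Isg15, a ubiquitin-like protein that is attached to other proteins, and Rsad2 (viperin), a radical enzyme that makes a chain-terminating nucleotide, were higher in hypoxic lungs by 0.56 ± 0.10 and 0.95 ± 0.18 on the log2 scale (difference ± SE, n=6 mice per group). These 2 of 30 members passed the threshold in limma (adjusted p under 0.05 over all transcript clusters) and 0 members were lower (also 0 at an unadjusted p under 0.05 and by analysis of variance). Over all genes 3.90% were called higher and 2.14% lower. At an unadjusted p under 0.05, 8 of the 30 members were higher and 0 lower, against 10.3% of all genes higher and 9.24% lower, and beside Isg15 and Rsad2 these were Zbp1, Oas2, Xaf1, Gbp3, Iigp1 and Igtp. The median difference of the 30 members was 0.10 in log2, against -0.01 for all genes, with 20 members above 0 and 10 below. Of all 22180 genes 10285 were above 0 and 11895 below. The median of the members fell to 0.05 without normoxic mouse 6. For 20 members the difference lay within 0.2 of 0, and for 17 the whole 95% interval lay within 0.4 of 0. Isg15 was the 1 member whose groups did not overlap, while 3.55% of all genes had every hypoxic mouse above every normoxic mouse.

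**Figure D1:**
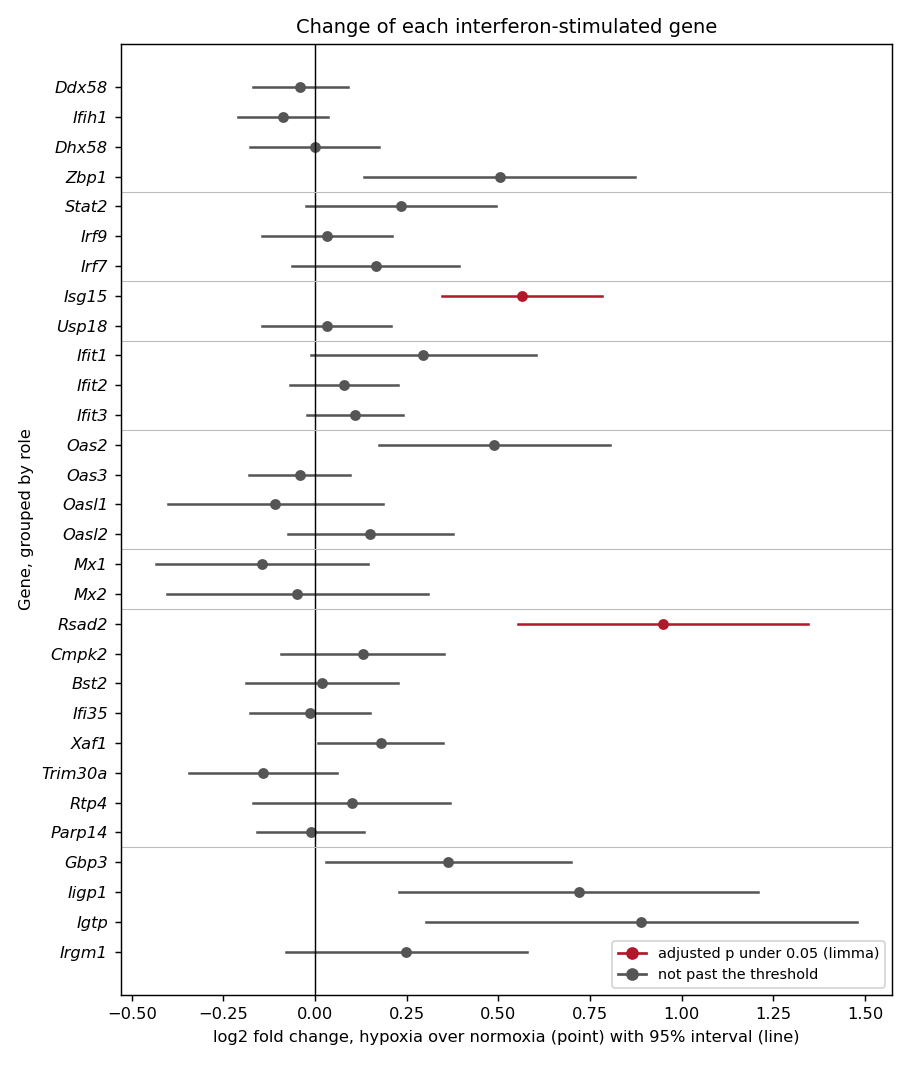
Log2 fold change of hypoxia over normoxia (x axis, point) with its 95% interval from limma (line) for the 30 measured members, grouped by role down the y axis (n=6 mice per group). Isg15 and Rsad2, in red, passed the adjusted threshold at 0.56 and 0.95, and the widest intervals belong to Igtp and Iigp1.

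Promoter sequence is shown for some members, chosen by hand among those whose promoter holds the element marked below. Every sequence shown was therefore bound to hold a match. The 130 bases before the start of the gene are given, 5′ to 3′ on the gene's own strand. They come from the RefSeq promoter table of build GRCm38.p6. Capitals mark every match, on either strand, to the core of the interferon-stimulated response element, spelled GAAANNGAAA. Isg15 lies on the minus strand (chr4:156200819-156200948), as do Rsad2 (chr12:26456453-26456582) and Irgm1 (chr11:48871421-48871550). Igtp (chr11:58199426-58199555), Gbp3 (chr3:142559914-142560043) and Ifit1 (chr19:34640759-34640888) lie on the plus strand.
Isg15: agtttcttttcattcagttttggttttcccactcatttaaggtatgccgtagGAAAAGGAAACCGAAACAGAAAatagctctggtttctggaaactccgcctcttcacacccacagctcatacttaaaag
Rsad2: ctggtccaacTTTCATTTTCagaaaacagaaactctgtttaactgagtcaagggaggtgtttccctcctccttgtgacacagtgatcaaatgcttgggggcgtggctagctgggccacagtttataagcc
Igtp: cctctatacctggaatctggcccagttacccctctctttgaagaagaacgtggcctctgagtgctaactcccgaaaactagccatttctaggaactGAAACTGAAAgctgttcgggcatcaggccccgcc
Irgm1: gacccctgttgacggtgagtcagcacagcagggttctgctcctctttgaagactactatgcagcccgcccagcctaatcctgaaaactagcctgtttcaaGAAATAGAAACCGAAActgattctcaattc
Gbp3: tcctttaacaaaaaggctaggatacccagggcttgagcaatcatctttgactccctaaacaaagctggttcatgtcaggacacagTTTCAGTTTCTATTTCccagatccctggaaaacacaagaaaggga
Ifit1: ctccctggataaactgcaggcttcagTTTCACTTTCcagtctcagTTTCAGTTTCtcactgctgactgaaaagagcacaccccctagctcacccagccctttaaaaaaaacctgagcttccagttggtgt

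In Isg15 3 overlapping matches form a run that ends 56 bases before the start, Rsad2 has 1 match on the opposite strand 110 bases before the start, and Igtp has 1 match 24 bases before it. The table held a promoter for 21 of the 30 members, covering 250 bases before the start and 50 after it. The element was found in 13 of these 21 (61.9%), and in 3.99% of 27025 genes with a promoter in the table (3.44% of 32851 promoters). A gamma-activated site, spelled TTCNNNGAA, was found in 4 of the 21 (19.0%: Ifit2, Bst2, Ifi35 and Igtp) and in 9.55% of genes. Differences of the 13 members with the element ran from -0.14 (Trim30a) to 0.95 (Rsad2), and those of the 8 members without it from -0.11 (Oasl1) to 0.18 (Xaf1). Members with no promoter in the table ran from -0.145 (Mx1) to 0.72 (Iigp1), with Zbp1 (0.50) and Oas2 (0.49) among them. Whether these hold the element is not known here, so the 2 ranges do not compare all members with and without it. A match describes letters in this window and is not a measured binding site.

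Among the sensors of nucleic acid, the cytosolic RNA helicases did not differ beyond the spread between mice. Ddx58 (RIG-I) differed by -0.04 (95% interval -0.17 to 0.09), Ifih1 (MDA5) by -0.09 (-0.21 to 0.03) and Dhx58 (LGP2), their regulator, by -0.00 (-0.18 to 0.17). Zbp1, a sensor of Z-form nucleic acid that can start necroptosis, had levels of 7.48, 8.30, 8.16, 8.15, 7.56 and 7.79 in hypoxic mice 1 to 6, against 7.56, 7.56, 7.04, 7.38, 7.82 and 7.06 in normoxic mice 1 to 6. Hypoxic mice 2, 3 and 4 lay above every normoxic mouse, and the other hypoxic mice overlapped with normoxia. The difference of 0.50 ± 0.17 (SE) did not pass the threshold (adjusted p = 0.14).

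The transcription factors that carry the type I signal, Stat2, Irf9 and Irf7, did not pass. Stat2 had a lowest, median and highest level of 8.05, 8.29 and 8.52 in hypoxia, against 7.69, 8.15 and 8.27 in normoxia, a difference of 0.24 (adjusted p = 0.363). Irf7, the factor that amplifies interferon-alpha production, differed by 0.17 (95% interval -0.06 to 0.39) and Irf9, the DNA-binding partner of the complex, by 0.03 (-0.14 to 0.21).

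ISG15 is joined to its targets by a chain of enzymes, activated by Uba7, carried by Ube2l6 and ligated in the mouse by Herc6, and Usp18 removes it. Isg15 had levels of 6.54, 6.74, 6.60, 6.64, 6.72 and 6.63 in hypoxic mice 1 to 6, against 6.02, 6.17, 5.87, 6.19, 6.46 and 5.78 in normoxic mice 1 to 6. The hypoxic mice spanned a narrow range that began above the highest normoxic mouse, number 5. Isg15 was 1.48-fold higher in hypoxia (adjusted p = 0.00599, limma). The carrier enzyme Ube2l6, which is not a listed member, moved the same way. Its levels were 7.33, 7.28, 7.30, 7.55, 7.58 and 7.61 in hypoxic mice, against 6.54, 6.91, 6.83, 6.82, 6.84 and 6.78 in normoxic mice, without overlap, a 1.58-fold difference (log2 0.66 ± 0.08, SE, adjusted p = 0.000467). The other 3 steps did not pass. Usp18, which is also a brake on the type I receptor, had lowest, median and highest levels of 7.70, 7.99 and 8.13 in hypoxia, against 7.76, 7.90 and 8.03 in normoxia, and differed by 0.03 (95% interval -0.14 to 0.21). Herc6 differed by 0.01 (-0.15 to 0.18) and Uba7 by -0.08 (-0.20 to 0.05).

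**Figure D2:**
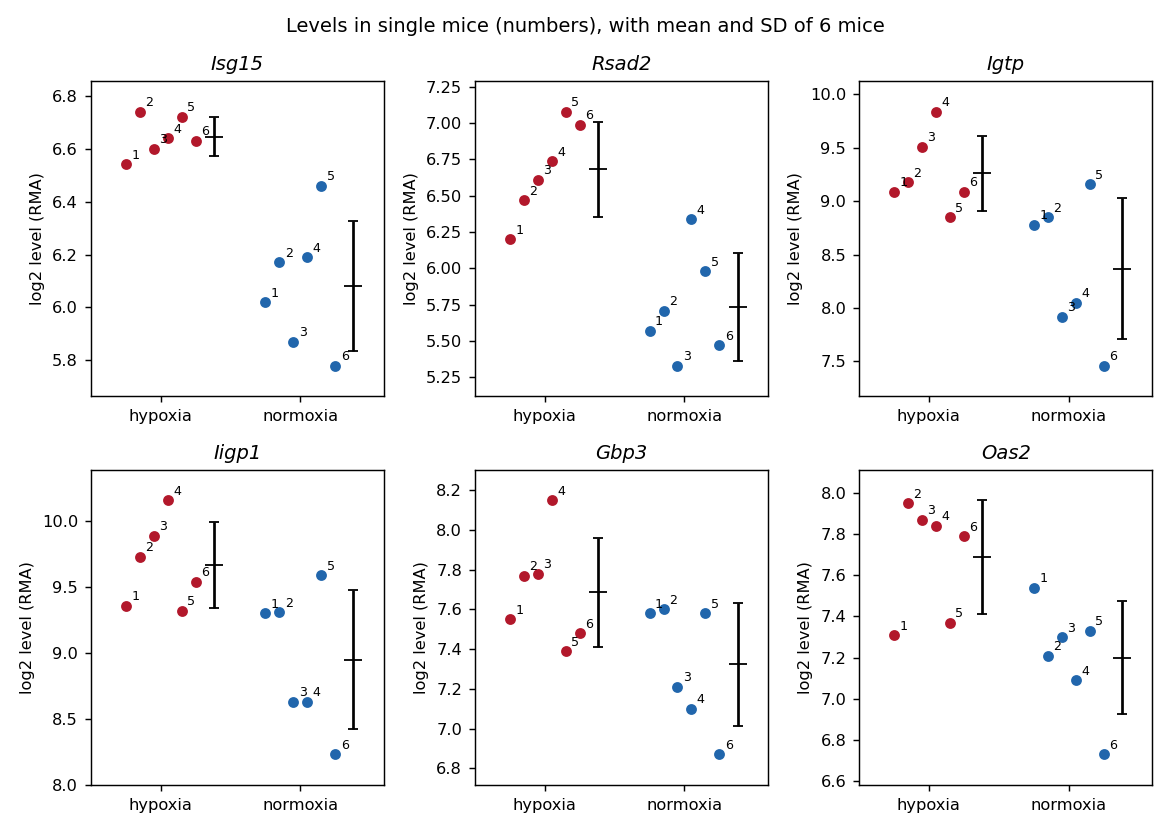
Log2 level (RMA, y axis, a scale for each panel) of 6 members in each hypoxic (red, left) and normoxic (blue, right) mouse, numbered by replicate, with the group mean and SD (bar, n=6). Isg15 has no overlap, Rsad2 overlaps through normoxic mouse 4 and hypoxic mouse 1, and the other 4 genes overlap more widely.

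The IFIT proteins, which bind viral RNA that lacks host cap marks, had small differences. Ifit1 had 7.53, 8.12, 7.42, 7.72, 7.47 and 7.75 in hypoxic mice 1 to 6, against 7.72, 7.23, 7.29, 7.15, 7.72 and 7.13 in normoxic mice 1 to 6. Hypoxic mouse 2 stood highest, normoxic mice 1 and 5 lay within the hypoxic range, and the difference of 0.30 (95% interval -0.01 to 0.60) did not pass (adjusted p = 0.326). Ifit2, a pro-apoptotic relative, differed by 0.08 (-0.07 to 0.23) and Ifit3, a partner of Ifit1, by 0.11 (-0.02 to 0.24). In the RefSeq gene order Ifit2 and Ifit3 are direct neighbours.

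The oligoadenylate synthetases sense double-stranded RNA and make the messenger that switches on RNase L, and of the 4 measured genes of this family Oas2 had the largest difference. It had 7.31, 7.95, 7.87, 7.84, 7.37 and 7.79 in hypoxic mice 1 to 6, against 7.54, 7.21, 7.30, 7.09, 7.33 and 6.73 in normoxic mice 1 to 6. Hypoxic mice 2, 3, 4 and 6 lay above every normoxic mouse, and hypoxic mice 1 and 5 lay inside the normoxic range. The difference was 0.49 ± 0.15 (SE, adjusted p = 0.0872). It passed when clusters dimmer than the median cluster were left out (0.0442) and when the fit used 1 value per gene (0.0413), both of which adjust over fewer tests. Oas3, the direct neighbour of Oas2, differed by -0.04 (95% interval -0.18 to 0.10). Oasl1, which represses Irf7 translation, differed by -0.11 (-0.40 to 0.19) and Oasl2 by 0.15 (-0.07 to 0.37).

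Mx1 and Mx2 are dynamin-like GTPases that block virus replication, and most laboratory strains, C57BL/6 among them, carry a defective Mx1. Mx1 had 4.85, 4.88, 5.04, 5.01, 4.78 and 4.74 in hypoxic mice 1 to 6, against 5.14, 4.90, 4.87, 4.68, 5.64 and 4.94 in normoxic mice 1 to 6, where mouse 5 stood highest of all 12. Mx2 had 4.99, 5.92, 5.48, 5.55, 5.34 and 5.43 in hypoxic mice 1 to 6, against 5.85, 5.73, 5.24, 5.40, 5.74 and 5.04 in normoxic mice 1 to 6, with wide overlap. Neither passed: Mx1 differed by -0.15 (adjusted p = 0.672) and Mx2 by -0.05 (adjusted p = 0.928), and the sign of Mx2 turned without hypoxic mouse 1 (0.044) or normoxic mouse 1 (0.022).

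Rsad2 had levels of 6.20, 6.47, 6.61, 6.74, 7.08 and 6.99 in hypoxic mice 1 to 6, against 5.57, 5.71, 5.33, 6.34, 5.98 and 5.47 in normoxic mice 1 to 6. Hypoxic mice 5 and 6 were the highest, and the groups overlapped only where normoxic mouse 4 exceeded hypoxic mouse 1. Rsad2 was 1.93-fold higher in hypoxia (adjusted p = 0.00961, limma). Its direct neighbour in the RefSeq gene order, Cmpk2, a nucleotide kinase, had lowest, median and highest levels of 7.20, 7.29 and 7.44 in hypoxia, against 6.80, 7.18 and 7.45 in normoxia. The Cmpk2 difference of 0.13 (95% interval -0.09 to 0.35) did not pass (adjusted p = 0.603).

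The other antiviral proteins were close to their normoxic levels. Bst2 (tetherin), which holds budding virions at the membrane, differed by 0.02 (95% interval -0.19 to 0.22), Ifi35 by -0.01 (-0.18 to 0.15) and Parp14, an ADP-ribosyltransferase, by -0.01 (-0.16 to 0.13). The second cluster of Ifi35 gave 0.01 (-0.24 to 0.26). Xaf1, a pro-apoptotic antagonist of XIAP, had lowest, median and highest levels of 9.16, 9.24 and 9.45 in hypoxia, against 8.88, 9.06 and 9.29 in normoxia, a difference of 0.18 (adjusted p = 0.276). Rtp4 differed by 0.10 (-0.17 to 0.37) and Trim30a, which restrains Toll-like receptor signalling, by -0.14 (-0.34 to 0.06).

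The interferon-gamma-inducible GTPases guard the cytosol against vacuolar pathogens and had the highest group median, 0.54, with all 4 measured genes above 0. The threshold was passed by 0 of them in limma or in an analysis of variance, and 3 had an unadjusted p under 0.05. Igtp (Irgm3), a regulator of the other GTPases, had 9.09, 9.18, 9.51, 9.84, 8.85 and 9.09 in hypoxic mice 1 to 6, against 8.78, 8.85, 7.92, 8.05, 9.16 and 7.46 in normoxic mice 1 to 6. Normoxic mice 3, 4 and 6 lay well below the rest, and normoxic mouse 5 lay above hypoxic mice 1, 5 and 6. The difference was 0.89 ± 0.27 (SE, 1.85-fold, adjusted p = 0.0956). Without normoxic mouse 5 it was 1.05 and passed (adjusted p = 0.0431), the 1 of 12 fits without a mouse in which it did. Without normoxic mouse 6 the difference fell to 0.71 (adjusted p = 0.156, limma). Igtp also passed with 1 value per gene (0.0453), which adjusts over fewer tests. Iigp1 (Irga6), an effector that coats the vacuoles of parasites, had 9.36, 9.73, 9.89, 10.16, 9.32 and 9.54 in hypoxic mice 1 to 6, against 9.30, 9.31, 8.63, 8.63, 9.59 and 8.23 in normoxic mice 1 to 6. The same 3 normoxic mice were the lowest, and the difference of 0.72 ± 0.23 (SE) did not pass (adjusted p = 0.107).

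Gbp3, a guanylate-binding protein, had 7.55, 7.77, 7.78, 8.15, 7.39 and 7.48 in hypoxic mice 1 to 6, against 7.58, 7.60, 7.21, 7.10, 7.58 and 6.87 in normoxic mice 1 to 6, a difference of 0.36 (adjusted p = 0.254). Irgm1, a regulator of autophagy and of the other GTPases, had 7.09, 7.24, 7.28, 7.52, 6.74 and 7.06 in hypoxic mice 1 to 6, against 7.11, 7.12, 7.02, 6.51, 7.17 and 6.51 in normoxic mice 1 to 6, a difference of 0.25 (adjusted p = 0.468). In both genes hypoxic mice 2, 3 and 4 lay above every normoxic mouse, and the other 3 hypoxic mice lay within the normoxic range.

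The members were also averaged within each mouse. As a mean over the 30 members of the level minus the gene's 12-mouse mean, hypoxic mice 1 to 6 had -0.09, 0.19, 0.14, 0.23, 0.00 and 0.09, against 0.00, -0.02, -0.23, -0.13, 0.17 and -0.35 in normoxic mice 1 to 6. Normoxic mouse 6 was the lowest of its group for 16 members and the lowest of all 12 mice for 14, and normoxic mouse 5 was the highest of its group for 19. Hypoxic mouse 1 was the lowest of its group for 16, and hypoxic mice 2 and 4 were each the highest for 10. For the 4 GTPases the same means were 0.11, 0.32, 0.45, 0.75, -0.09 and 0.13 in hypoxic mice 1 to 6, against 0.03, 0.06, -0.47, -0.59, 0.21 and -0.90 in normoxic mice 1 to 6. Normoxic mice 3, 4 and 6 held the 3 lowest values and hypoxic mice 2, 3 and 4 the 3 highest. Among the 30 members 21 (70.0%) had a larger SD in normoxia than in hypoxia, as had 51.1% of all genes, and the median SD of members was 0.164 in hypoxia and 0.222 in normoxia, against 0.129 and 0.130 for all genes. No test was made of these shares.

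**Figure D3:**
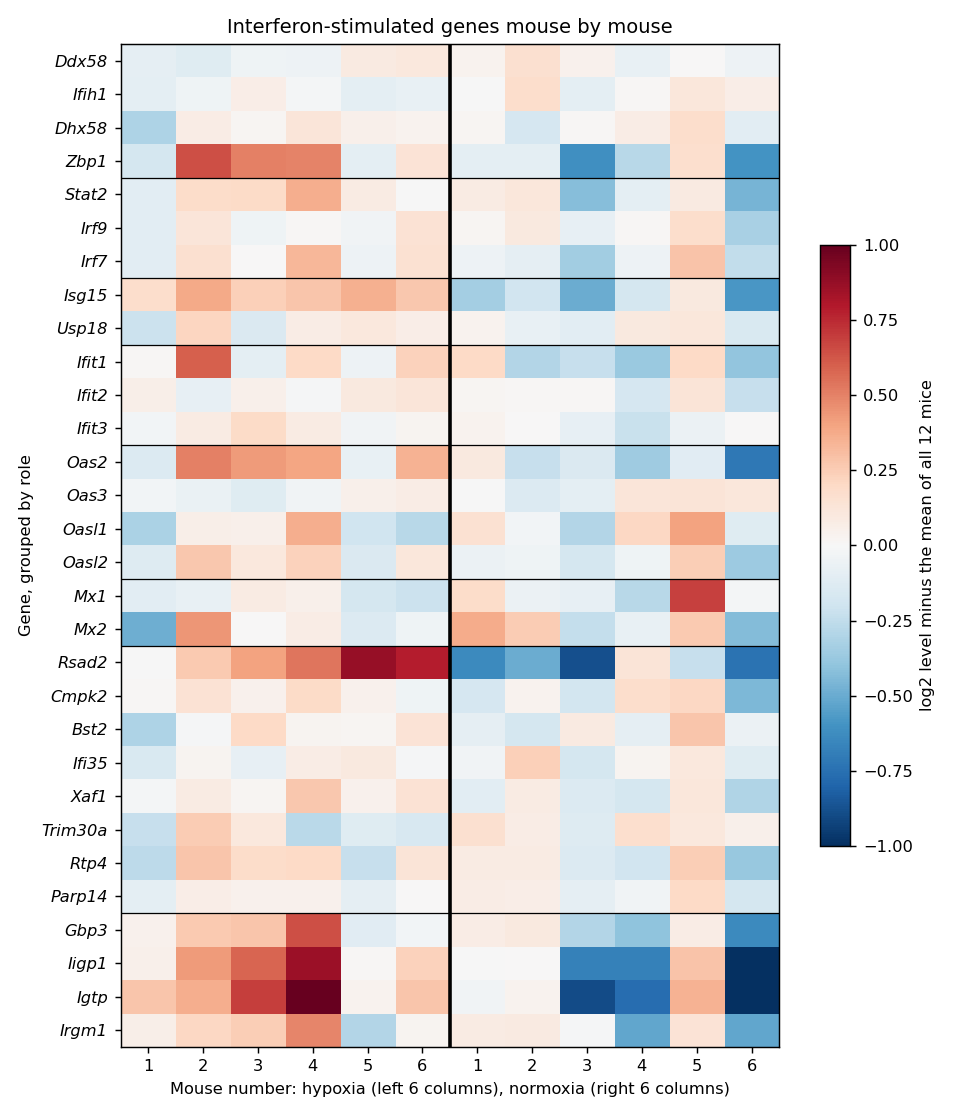
Log2 level minus the mean of all 12 mice (colour, red above and blue below, limits -1 to 1) for the 30 measured members in rows, grouped by role, and the 12 mice in columns, hypoxia left of the black line and normoxia right. Normoxic mouse 6 is blue for most members, normoxic mouse 5 is red for most, and the mean of the 4 GTPases in the bottom rows is lowest in normoxic mice 3, 4 and 6.

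No interferon gene passed the threshold. Of 18 measured ligands 0 were higher and 0 lower in limma or in an analysis of variance, 2 had an unadjusted p under 0.05, and the median difference was -0.03. Ifnb1 had lowest, median and highest levels of 3.12, 3.25 and 3.45 in hypoxia, against 3.18, 3.40 and 3.72 in normoxia, and Ifng, the gamma interferon, had 4.55, 4.84 and 5.24 in hypoxia, against 4.63, 4.79 and 4.93 in normoxia. Ifnb1 differed by -0.13 (95% interval -0.33 to 0.07) and Ifng by 0.08 (-0.13 to 0.29), and the 2 ligands with the smallest p were Ifna6 (-0.22, adjusted p = 0.215) and Ifna12 (-0.15, adjusted p = 0.289). All 4 of these genes lay below the array medians of 5.89 to 5.95 in every mouse, while some other ligands lay above them. No signal of background probes was used, so a change in such dim transcripts can be missed.

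Among 9 receptor chains and Janus kinases, Ifngr1, the ligand-binding chain for interferon-gamma, was higher and 0 were lower in limma (1, Jak1, by analysis of variance, log2 -0.16, adjusted p = 0.0289 there and 0.106 in limma). Ifngr1 had 10.02, 10.01, 9.96, 9.99, 10.13 and 9.98 in hypoxic mice, against 9.55, 9.72, 9.72, 9.72, 9.80 and 9.62 in normoxic mice. The groups did not overlap, and the difference was 0.33 ± 0.06 (SE, adjusted p = 0.0041). Ifnar1 differed by -0.08 (95% interval -0.23 to 0.07) and Ifnar2 by -0.04 (-0.17 to 0.08). Of 13 genes for nucleic acid sensing upstream of interferon, Sting1, the adaptor of cytosolic DNA sensing, was higher by 0.41 (adjusted p = 0.0101) and Aim2, a DNA sensor of the inflammasome, was lower by 0.31 in hypoxia (log2 -0.31, adjusted p = 0.00918), both without overlap between groups. Irf3 was also lower without overlap (-0.22) but did not pass in limma (adjusted p = 0.137). Of the 13 genes 10 had differences below 0, with a list median of -0.09. The feedback inhibitors of cytokine receptors Socs3 (0.50, adjusted p = 0.0135) and Socs1 (0.32, adjusted p = 0.0265) were higher and the SUMO ligase Pias1 (-0.21, adjusted p = 0.0136) was lower, among 11 negative regulators. The Socs1 call was lost without any 1 of hypoxic mice 2, 3 and 4 or normoxic mice 2, 3 and 6 (adjusted p up to 0.0616).

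Of 42 further interferon-stimulated genes outside the member list, 4 were higher and 2 lower, with a median of 0.01. Beside Ube2l6 these were Samd9l, a translational inhibitor (0.32, adjusted p = 0.00785), Ifitm1, which blocks virus entry at membranes (0.29, adjusted p = 0.012), and Lgals3bp (0.30, adjusted p = 0.039), with Ifi209, of the DNA-binding HIN-200 family (-0.60, adjusted p = 0.0375), and Trim34a (-0.26, adjusted p = 0.0463) lower. The call for Lgals3bp held in 2 of 12 fits that left out a mouse (without hypoxic mouse 1 or normoxic mouse 5), that for Trim34a in 2 (without hypoxic mouse 3 or normoxic mouse 6), and that for Ifi209 in 3 (without hypoxic mouse 3 or normoxic mouse 3 or 6). By analysis of variance the Ifi209 call was lost (adjusted p = 0.0694).

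Of 21 further interferon-gamma-induced genes 3 were higher and 0 lower, with a median of 0.18. Cxcl10, a chemokine for activated T cells, had 6.10, 6.27, 6.14, 6.77, 6.13 and 6.00 in hypoxic mice 1 to 6, against 5.72, 5.51, 5.14, 5.24, 6.10 and 5.45 in normoxic mice 1 to 6. Normoxic mouse 5 alone reached the hypoxic range, and the difference was 0.71 ± 0.16 (SE, adjusted p = 0.0278). Ciita, the master regulator of MHC class II, was higher by 0.45 (adjusted p = 0.0356) and Nos2, the inducible nitric oxide synthase, by 0.36 (adjusted p = 0.037). Gbp4 had 9.02, 8.86, 9.34, 9.49, 8.66 and 8.75 in hypoxic mice, against 8.65, 8.65, 8.02, 7.36, 8.48 and 7.54 in normoxic mice, without overlap, and its difference of 0.90 did not pass (adjusted p = 0.0532). The Cxcl10 call was lost without any 1 of hypoxic mouse 2 or normoxic mice 2, 3, 4 and 6 (adjusted p up to 0.0634). The Ciita call held only without hypoxic mouse 5 or normoxic mouse 1, 2 or 5 and the Nos2 call only without hypoxic mouse 2 or 4 or normoxic mouse 3, among fits that left out a mouse. At an unadjusted p under 0.05 in limma, 7 of the 21 were higher and 0 lower, against 10.3% of all genes higher and 9.24% lower. By analysis of variance 0 of the 21 passed the adjusted threshold. All 14 measured genes of MHC class I presentation had differences above 0, as had 10285 of all 22180 genes. The 14 ran from 0.005 (Erap1) to 0.22 (Tap1) with a median of 0.07, and Nlrc5 is also on the interferon-gamma list. By either test 0 of them passed (1 had an unadjusted p under 0.05), with Psmb10 (0.20, adjusted p = 0.217) and Tap1 (0.22, adjusted p = 0.43) the smallest in p.

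**Figure D4:**
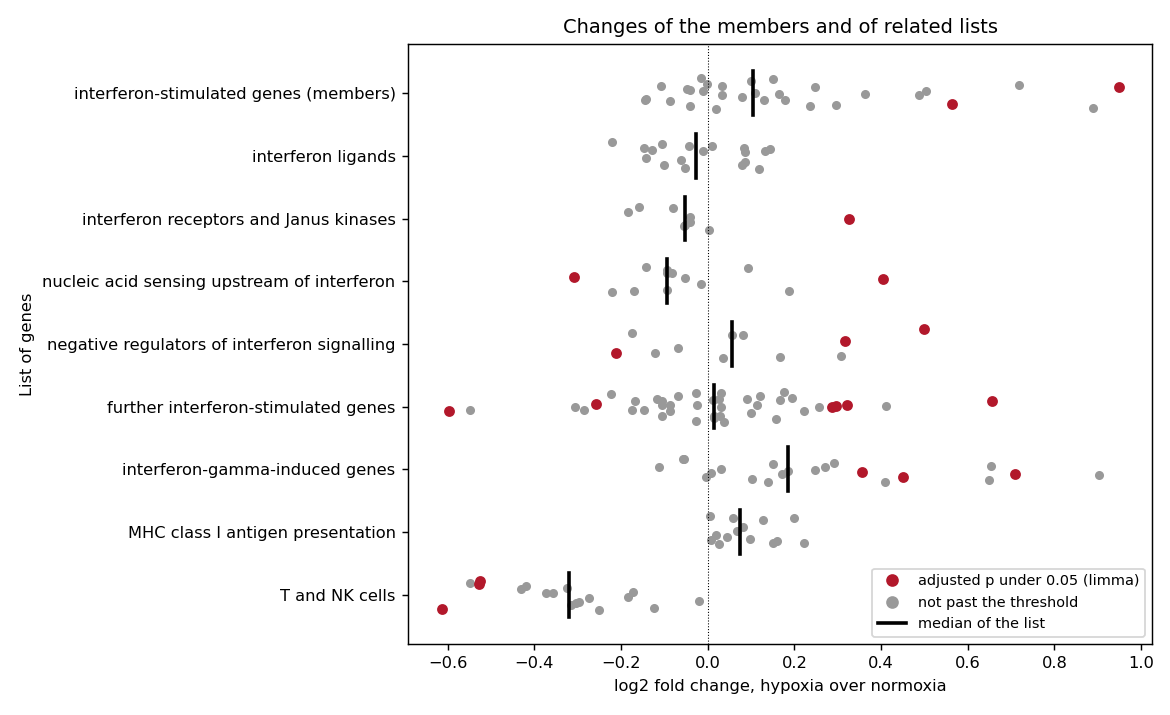
Log2 fold change of hypoxia over normoxia (x axis) for every measured gene of the members and of 8 related lists (y axis), with calls in red and the median of each list as a black bar (limma, n=6 mice per group). The medians are 0.10 for the members, 0.18 for the interferon-gamma-induced genes and -0.32 for T and NK cell markers.

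Markers of cells that make or answer interferon were measured beside these genes. All 18 measured T and NK cell markers had differences below 0, as had 11895 of all 22180 genes. The median of the markers was -0.32, and 3 were lower: Cd3g, a chain of the T cell receptor complex (-0.61, adjusted p = 0.0288), the NK receptor Klre1 (-0.53, adjusted p = 0.0316) and the interleukin-7 receptor Il7r (-0.53, adjusted p = 0.0465). The sum of the unlogged levels of the 18 markers was 2340 to 2928 in hypoxic mice, against 2438 to 4539 in normoxic mice. At an unadjusted p under 0.05 in limma, 12 of the 18 were lower and 0 higher, against 9.24% of all genes lower and 10.3% higher. By analysis of variance 0 of the 18 passed the adjusted threshold. In limma the Cd3g call was lost without any 1 of hypoxic mice 2, 3, 5 and 6 or normoxic mice 2 and 5, while Klre1 held only without hypoxic mouse 2 or normoxic mouse 5 or 6, and Il7r only without hypoxic mouse 6 or normoxic mouse 1, 4 or 6. The mean deviation of the 18 markers was -0.13, -0.17, -0.26, -0.06, -0.14 and -0.26 in hypoxic mice 1 to 6, against 0.14, 0.06, 0.09, 0.41, 0.42 and -0.11 in normoxic mice 1 to 6. Normoxic mouse 5 was the highest of its group both for these markers and for the GTPases (0.21), and normoxic mouse 6 the lowest for both (-0.90 for the GTPases). Normoxic mouse 4, close to mouse 5 for these markers, had -0.59 for the GTPases. The part of T and NK cells in the results for interferon-stimulated genes was not tested.

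Of the other cell types, markers of plasmacytoid dendritic cells, classical monocytes and endothelium held calls. Of 5 markers of plasmacytoid dendritic cells, the cells that secrete most type I interferon, Siglech was lower (-0.30, adjusted p = 0.0191), and their summed level was 745 to 1119 in hypoxia, against 810 to 1024 in normoxia. Most of that sum came from Cox6a2 (log2 0.06), the 1 marker with a difference above 0. The other 4 were below 0, with a median of -0.165 over the 5. The largest of these differences, Klk1 (-1.15), did not pass in limma (adjusted p = 0.0522). Of 5 markers of classical monocytes Vcan (1.12, adjusted p = 4.76e-05) and F13a1 (0.41, adjusted p = 0.00769) were higher while Ccr2 (0.05), Ly6c2 (0.03) and Ms4a4c (-0.22), which is also on the list of further interferon-stimulated genes, were not past the threshold, and their sum was 1524 to 1916 in hypoxia, against 1310 to 1880 in normoxia. Of 9 endothelial markers Sox17 was higher (0.53, adjusted p = 0.00286) and Kdr (-0.39, adjusted p = 0.00403), Tek (-0.27, adjusted p = 0.0469) and Ramp2 (-0.28, adjusted p = 0.0481) were lower, with sums of 10540 to 11220 in hypoxia and 11040 to 12360 in normoxia. The calls for Tek and Ramp2 each held in 2 of 12 fits that left out a mouse (Tek without hypoxic mouse 6 or normoxic mouse 1, Ramp2 without hypoxic mouse 4 or normoxic mouse 1), and Ramp2 was lost by analysis of variance (adjusted p = 0.0516). Markers of B cells (6 measured, median -0.31), conventional dendritic cells (5, -0.07), nonclassical monocytes (6, -0.02), alveolar macrophages (5, -0.18), neutrophils (7, 0.22) and lung epithelium (8, -0.06) had 0 calls in limma. In these 6 lists 9 markers had an unadjusted p under 0.05, and 1, the surfactant lipid transporter Abca3 (log2 -0.25), passed by analysis of variance. In the B cell list the smallest p belonged to Blk (-0.33, adjusted p = 0.143) and Cd79b (-0.40, 0.199). In the conventional dendritic cell list it belonged to Itgae (0.21, 0.256) and Cd209a (-0.14, 0.448). For the nonclassical monocyte list it was that of Ace (0.23, 0.0793) and Spn (-0.12, 0.534). In the other 3 lists it belonged to the macrophage genes Krt79 (-0.28, 0.0839) and Pparg (-0.18, 0.118), the neutrophil genes Retnlg (0.81, 0.391) and Cxcr2 (0.30, 0.412), and the epithelial genes Abca3 (-0.25, 0.0546) and Foxj1 (0.29, 0.0658). Markers were assigned to a cell type by list, and which cells of the lobe gave the RNA of a marker was not measured. The part of these cells in the members' values was not tested.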

How the data were processed

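Total RNA of 12 left lung lobes was measured on Affymetrix Mouse Gene 2.0 ST arrays, 1 per mouse. The authors processed the scans with RMA in Expression Console (versions not given in the sources used here), so that the deposited values are background-corrected, quantile-normalized and summarized log2 levels, which can compress differences of dim genes. Of 41345 rows, 190 control rows were left out. Of 41155 clusters, 23521 carry 1 gene in the platform annotation, 1820 several and 15814 are unnamed here. Hypoxia was compared with normoxia in limma 3.58.1 (R 4.3.3; lmFit and eBayes, two-sided, Benjamini-Hochberg over 41155 clusters, threshold 0.05), with no filter or covariate. The methods name an anova, which was an alternative. The script was tested on simulated data.

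The members and the 17 lists beside them were chosen with earlier results of these data known. By rule, values mouse by mouse were given for members past the threshold and the 8 with the largest SD within a group, and each other list had its called genes named (at most 4, smallest p first) or the 2 with the smallest p. Ifit1, Oas2, Ifnb1, Ifng, Ifnar1, Ifnar2, Jak1, Irf3, Uba7, Herc6, Lgals3bp, Trim34a, Gbp4, Erap1, Nlrc5, Cox6a2, Klk1, Ccr2, Ly6c2 and Ms4a4c, and the tissue markers Sftpc and Cdh5, were named beyond the rule, once their values had been seen. Of the genes named from other lists, Socs3, Lgals3bp, Trim34a and Cd209a had 2 clusters each, and values are given for the brighter cluster only. Sums are of unlogged levels. Motifs were searched in the RefSeq promoter table. Alternatives were other thresholds, tests, weights, normalization, centring, filters, 1 value per gene, the replicate number as a block and each mouse left out in turn. Tables were made with pandas 2.3.3 and numpy 2.4.6 and plots with matplotlib 3.10.9, in Python 3.11.15.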

Additional observations from a re-analysis of the deposited data

Results flagged for a closer look

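In 4 of 110 groups of 6 mice searched (55 genes), 1 mouse lay far from the other 5, with a gap to the nearest mouse that exceeded the 95% critical value of Dixon's test for 6 values, and chance gives such a gap in about 1 of 20 groups. Dhx58, the LGP2 helicase, was lowest in hypoxic mouse 1 at 5.85 in log2, while the other hypoxic mice had 6.18 to 6.28. That mouse was also the lowest of its group for 16 of the 30 members. Ifngr1 was highest in hypoxic mouse 5 at 10.13, against 9.96 to 10.02 in the others. Ube2l6 was lowest in normoxic mouse 1 at 6.54, against 6.78 to 6.91 in the others. Cxcl10 was highest in hypoxic mouse 4 at 6.77, against 6.00 to 6.27 in the others, and that mouse had the highest Igtp, Iigp1, Gbp3 and Irgm1 of all 12.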

How the results depend on the processing

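Isg15 and Rsad2 passed the threshold under every alternative test, weighting, normalization, centring and filter run, and in all 12 fits that left out a mouse (Isg15 0.50 to 0.64, Rsad2 0.87 to 1.07). The number of members higher in hypoxia was 4 at a threshold of 0.10 and 4 with 1 value per gene (Oas2 and Igtp added in the second), and between 2 and 3 over the fits without a mouse. No member was lower in any of these. Mx2 turned its sign in 2 of those 12 fits, over a range of -0.142 to 0.044 (0.044 without hypoxic mouse 1 and 0.0217 without normoxic mouse 1). The median difference of the members ran from 0.05 to 0.14 over all alternatives, and stayed above 0. With the replicate number as a block, 2 members were higher (Isg15 and Rsad2) and 961 clusters were called, against 1840 without it. The labels do not say whether the numbers pair the mice. Deviations of same-numbered mice correlated at -0.01 to 0.07, and 1 of 6 hypoxic mice correlated best with its own number. No signal of background probes was used, which limits what can be said of dim genes such as Mx1, Ifnb1 and Ifng. The normoxic mean of Rsad2 (5.73) also lay below the normoxic array medians of 5.89 to 5.95, and that of Isg15 (6.08) lay little above them. With 6 mice per group small differences can be missed.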
